A study of Homo sapiens with 6 samples.

Results

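Cathepsins are the main proteases of the lysosome, and legumain is the lysosomal enzyme that cuts after asparagine and trims several cathepsin precursors. The 10 genes described here, CTSA, CTSB, CTSC, CTSD, CTSH, CTSL, CTSO, CTSS, CTSZ and LGMN, were taken by symbol from a count table of 65746 human genes, and all 10 were found. The table comes from SU-DHL-8, an established human line of diffuse large B-cell lymphoma, labelled wild type. One group of 3 libraries came from cells kept for 24 h with 15 µM β-sitosterol, a plant sterol, and the other group of 3 from cells kept as long with DMSO, the solvent. All cells grew in RPMI medium with fetal bovine serum and antibiotics. There was 1 cell line, 1 dose and 1 time, and the labels speak of replicate experiments without saying what was repeated, so the p-values measure the spread between these libraries.

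Most cathepsins are cysteine proteases of the papain type, while cathepsin D is an aspartic protease and cathepsin A a serine carboxypeptidase. They are made as inactive precursors, tagged with mannose 6-phosphate, carried to the lysosome by receptors that recognise the tag, and activated there at low pH. Cystatins and some serpins block those that escape into the cytosol. In B cells, lysosomal proteases also cut antigen and the invariant chain that occupies class II molecules, a step in which cathepsin S is the enzyme best known.

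Totals over the genes kept were 26453101 to 29359951 counts in the β-sitosterol libraries and 31314104 to 35565163 in the DMSO libraries. β-sitosterol libraries were closely alike, with a median SD of 0.09 log2 units per gene, against 0.27 in DMSO libraries, where replicate 2 stood apart. Each pair of libraries within a group differed by more than sampling noise. All 7 B cell markers checked were detected, of which MS4A1 and CD79A rose (log2 fold change 2.23 and 1.05) and PAX5 fell (-1.67). Of 14 monocyte and macrophage markers, a cell type rich in cathepsins, 4 were at 0 in every library (C1QA, C1QB, S100A8 and S100A9). The 14 summed to 6.52 to 8.40 CPM after β-sitosterol and to 4.86 to 7.22 CPM with DMSO, most of it LYZ. CPM are counts scaled to library size, here with edgeR's TMM factors. The 2 markers with enough counts to test, LYZ and CD14, did not pass (edgeR adjusted p = 0.58 and 0.15). A gene is said to rise or fall only if its adjusted p in edgeR's quasi-likelihood test over all 11525 tested genes was under 0.05.

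Of the 10 genes, 8 had enough counts to be tested, and 4 of them rose: CTSZ, CTSD, CTSB and CTSH. CTSZ was 4.27-fold, CTSD 3.24-fold, CTSB 3.17-fold and CTSH 2.01-fold as high as in DMSO cells. CTSA, CTSC, CTSS and CTSO did not pass, and 0 of the 8 fell in edgeR's test (CTSO alone, lower, had an unadjusted p under 0.05, and DESeq2 called it lower). Among all tested genes 40.8% were called, 19% as higher and 21.8% as lower, while 9.09% were called higher by at least 2-fold, as CTSZ, CTSD, CTSB and CTSH were, and 6.37% lower by as much. The groups did not overlap for these 4 of the 8, against 56.1% of all tested genes. The median log2 fold change was 0.50 over the 8 and -0.04 over all tested genes. The 0.50 lies midway between CTSS at -0.02 and CTSH at 1.01, with no gene near it. With a filter of 1 CPM in 3 libraries, which removed CTSH, the median of the remaining members was -0.004. Summed over the 10 genes, the level was 491.6 to 502.2 CPM after β-sitosterol and 290.6 to 317.7 CPM with DMSO. In bulk RNA, more RNA per cell and more cells that express a gene cannot be told apart.

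Promoters are shown for 3 of these genes because the transcription factors TFEB and TFE3, which drive many lysosomal genes, bind the E-box letters CACGTG. RefSeq windows from 250 bases before to 50 after the start were searched for CTSA, CTSC, CTSD, CTSH, CTSL and CTSZ. No window was searched for CTSB, which rose, or for CTSS, CTSO and LGMN. Matches are in capitals, in the gene's own direction. CTSZ and CTSD rose and CTSA did not pass. On GRCh38.p14 the windows, in the order printed, are chr20:59007205-59007504 on the minus strand, chr11:1763878-1764177 on the minus strand and chr20:45891085-45891384 on the plus strand.
CTSZ: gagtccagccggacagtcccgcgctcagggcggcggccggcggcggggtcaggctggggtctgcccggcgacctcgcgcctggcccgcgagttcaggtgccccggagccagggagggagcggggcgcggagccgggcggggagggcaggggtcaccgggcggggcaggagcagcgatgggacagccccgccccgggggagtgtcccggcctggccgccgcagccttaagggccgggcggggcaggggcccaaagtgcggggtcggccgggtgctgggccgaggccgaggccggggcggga
CTSD: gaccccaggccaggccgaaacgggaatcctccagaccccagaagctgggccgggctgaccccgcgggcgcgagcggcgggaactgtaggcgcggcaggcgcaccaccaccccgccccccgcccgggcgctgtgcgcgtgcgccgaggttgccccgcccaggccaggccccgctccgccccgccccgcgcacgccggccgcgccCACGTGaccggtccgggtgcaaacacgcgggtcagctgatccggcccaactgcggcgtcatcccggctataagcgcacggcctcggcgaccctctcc
CTSA: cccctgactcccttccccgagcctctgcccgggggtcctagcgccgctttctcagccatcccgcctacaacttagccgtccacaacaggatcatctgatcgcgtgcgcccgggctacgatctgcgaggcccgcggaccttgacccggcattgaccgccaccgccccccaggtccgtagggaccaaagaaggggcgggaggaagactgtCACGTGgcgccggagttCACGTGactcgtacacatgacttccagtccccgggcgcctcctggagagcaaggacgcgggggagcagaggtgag
The CTSA window holds the letters at -42 and at -25 from the start site, the CTSD window at -47, and the CTSZ window has no match. CACGTG, which reads the same on both strands, occurs in 7.26% of all 35116 RefSeq windows of that length. CTSC, CTSH and CTSL have none. A longer form, with further fixed bases on both sides of CACGTG, was searched as well. It occurs in 0.353% of all windows and in 0 of the 6. The AP-1 letters TGANTCA, in which N is any base, searched on both strands, occur in 7.71% of all windows and in 0 of the 6. No match means only that these letters are not in these windows.

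**Figure D1:**
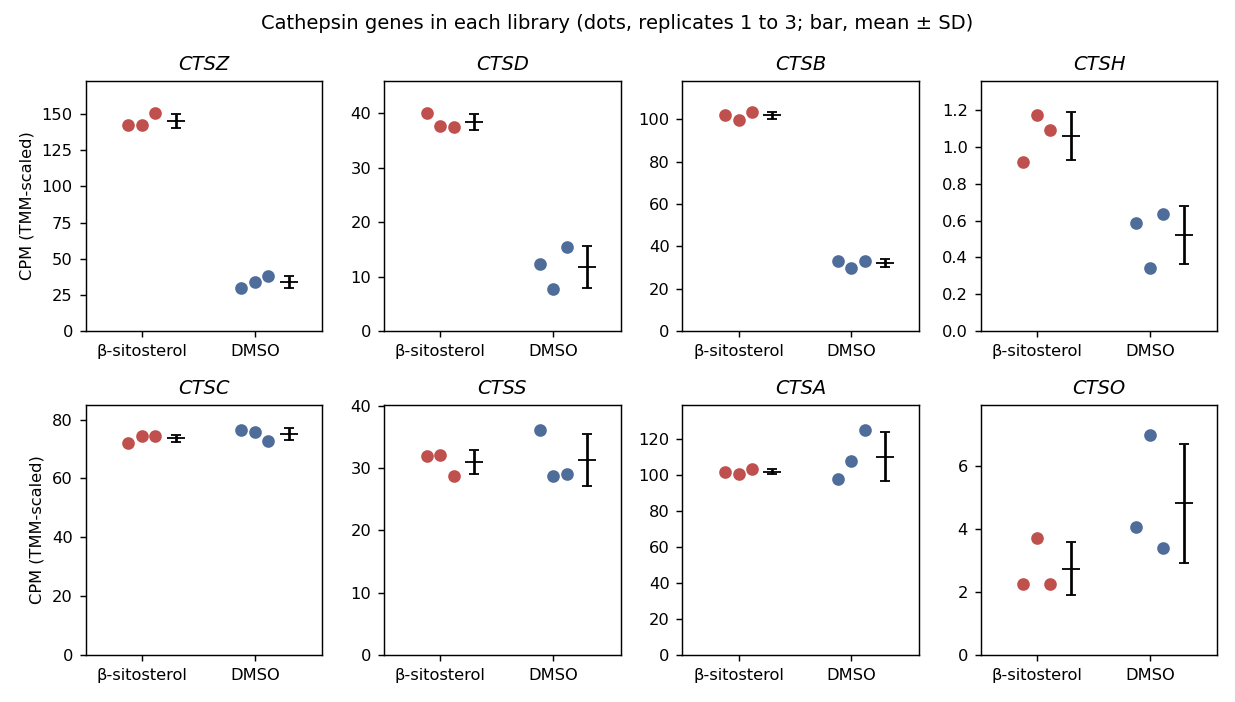
CPM of the 8 tested genes in each library, with β-sitosterol on the left and DMSO on the right of each panel; dots are replicates and bars the mean ± SD of 3. In CTSZ, CTSD, CTSB and CTSH every β-sitosterol library lies above every DMSO library, and in the other panels the groups overlap.

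Among proteases that cut within a chain, CTSB and CTSD rose. CTSB encodes cathepsin B, which can also remove dipeptides from the end of a protein. CTSB stood at 102, 99.8 and 103 CPM in β-sitosterol replicates 1, 2 and 3 and at 33.1, 29.8 and 33.3 CPM in DMSO replicates 1, 2 and 3. The groups were far apart and each was tight. The log2 fold change was 1.67 ± 0.11 (SE; edgeR adjusted p = 8.35e-05). CTSD encodes cathepsin D, the main aspartic protease of lysosomes. CTSD stood at 40.1, 37.6 and 37.5 CPM after β-sitosterol and at 12.4, 7.72 and 15.4 CPM with DMSO. The DMSO libraries spread more widely, and replicate 2 was the lowest. Its log2 fold change was 1.70 ± 0.23 (SE; edgeR adjusted p = 8.90e-04), and 1.46 without that DMSO library.

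Of the others that cut within a chain, CTSS and CTSO did not pass, and CTSL and LGMN could not be tested. CTSS encodes cathepsin S, which stays active near neutral pH and trims the invariant chain. CTSS stood at 31.9, 32.2 and 28.7 CPM after β-sitosterol and at 36.1, 28.7 and 29.01 CPM with DMSO. The groups overlapped, and the 95% interval of the log2 fold change ran from -0.33 to 0.30 (edgeR adjusted p = 0.94). CTSO encodes cathepsin O, a less studied cysteine protease. CTSO stood at 2.24, 3.71 and 2.25 CPM after β-sitosterol and at 4.05, 6.96 and 3.41 CPM with DMSO. Replicate 2 was the highest library in each group, and the groups overlapped. It stood at -0.81 ± 0.33 on the log2 scale (SE; adjusted p = 0.076 in edgeR), above the threshold. With the replicate number as a block the adjusted p was 0.017, without DMSO replicate 3 it was 0.047, and without DMSO replicate 2 the log2 fold change was -0.46 with an adjusted p of 0.11.

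LGMN had 2, 2 and 4 counts in the β-sitosterol libraries and 1, 0 and 5 counts in the DMSO libraries, too few to test. At this depth no difference was detectable. CTSL, the gene of cathepsin L, a broad endopeptidase, was listed at 0 in all 6 libraries. All 7 rows of CTSL pseudogenes were listed at 0 too. The same table lists at 0 all 70 rows of replication-dependent histone genes, which dividing cells use, so a 0 here may be a failed listing and no level of CTSL is claimed.

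Among proteases that cut from a chain's end, CTSZ and CTSH rose. CTSZ encodes cathepsin Z, also called cathepsin X, a carboxypeptidase that removes single amino acids. CTSZ stood at 142, 142 and 151 CPM after β-sitosterol and at 29.8, 34.2 and 38.0 CPM with DMSO, from 4196, 3756 and 4153 counts after β-sitosterol and 1016, 1089 and 1316 counts with DMSO. Every β-sitosterol library was far above every DMSO library. Of the 8 genes it had the largest change, 2.09 ± 0.13 on the log2 scale (SE; adjusted p = 7.70e-05 in edgeR), and 2.22% of all tested genes had a larger one. CTSH encodes cathepsin H, which acts mostly as an aminopeptidase. It was barely detected, with 27, 31 and 30 counts after β-sitosterol and 20, 11 and 22 counts with DMSO. Scaled, this was 0.92, 1.17 and 1.09 CPM after β-sitosterol and 0.587, 0.345 and 0.635 CPM with DMSO, without overlap. The log2 fold change was 1.01 ± 0.32 (SE; edgeR adjusted p = 0.035). CTSH missed the threshold without β-sitosterol replicate 1, 2 or 3 (adjusted p = 0.073, 0.12 and 0.10), without DMSO replicate 1 or 2 (0.071 and 0.069), and with the replicate block (0.060). It missed it narrowly with the block and the gene length trend removed (0.0501). On the authors' TPM, which are reads scaled by gene length and library, its change was smaller. CTSH stood at 0.11 on log2(TPM + 1) (limma adjusted p = 0.22) and at 0.48 on log2(TPM + 0.1) (0.21).

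CTSC and CTSA, which also act on chain ends, did not pass. CTSC encodes cathepsin C, the dipeptidyl peptidase that activates granule serine proteases in T cells and myeloid cells. CTSC stood at 72.2, 74.3 and 74.4 CPM after β-sitosterol and at 76.6, 75.8 and 72.7 CPM with DMSO. These overlapping values gave a 95% interval of the log2 fold change from -0.27 to 0.21 (edgeR adjusted p = 0.86). CTSA encodes cathepsin A, a carboxypeptidase that also holds β-galactosidase and neuraminidase in a stable complex. CTSA stood at 102, 101 and 104 CPM after β-sitosterol and at 98.0, 108 and 125 CPM with DMSO, with an interval from -0.40 to 0.17 (edgeR adjusted p = 0.50). PLTP, the phospholipid transfer protein gene that overlaps CTSA on the opposite strand, rose, with 35.4, 33.7 and 38.9 CPM after β-sitosterol and 14.7, 10.7 and 16.2 CPM with DMSO (edgeR adjusted p = 6.57e-04). Its part in the CTSA counts was not tested.

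**Figure D2:**
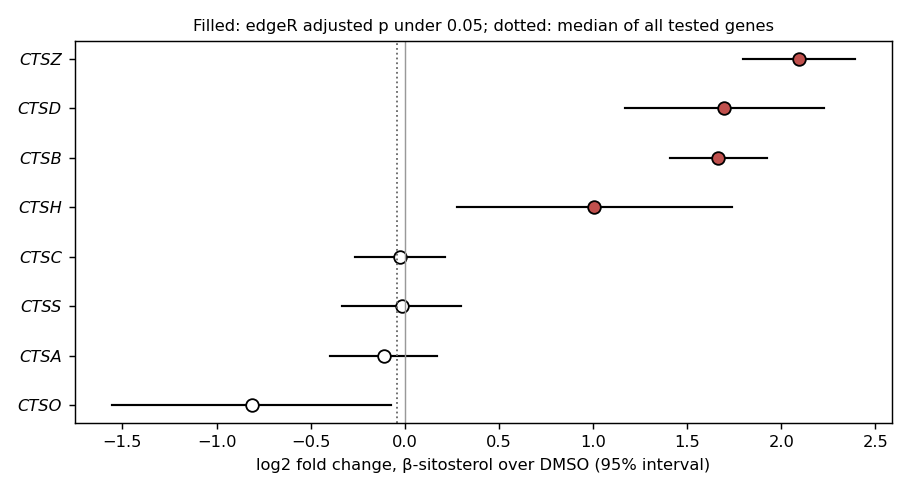
Log2 fold change of the 8 tested genes, β-sitosterol over DMSO, with 95% intervals; filled points passed edgeR's test and the dotted line is the median of all tested genes. CTSZ, CTSD, CTSB and CTSH lie at 1.01 to 2.09 with intervals above 0, CTSC, CTSS and CTSA close to 0, and CTSO at -0.81.

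The genes lie apart in the genome, with positions given by RefSeq on GRCh38.p14. CTSZ (ENSG00000101160) spans chromosome 20 from 58995185 to 59007254 and CTSA (ENSG00000064601) the same chromosome from 45891335 to 45898820. CTSD (ENSG00000117984) spans chromosome 11 from 1752755 to 1763927 and CTSC (ENSG00000109861) the same chromosome from 88293592 to 88337736. CTSB (ENSG00000164733) lies on chromosome 8 from 11842524 to 11868087, CTSH (ENSG00000103811) on chromosome 15 from 78921058 to 78945046, and CTSS (ENSG00000163131) on chromosome 1 from 150730188 to 150765778. CTSO (ENSG00000256043) lies on chromosome 4 from 155924118 to 155953866, CTSL (ENSG00000135047) on chromosome 9 from 87726119 to 87731469 and LGMN (ENSG00000100600) on chromosome 14 from 92703809 to 92748627. In GENCODE v29, CTSA overlaps PLTP, NEURL2 and AL008726.1 on the opposite strand. Since the use of strand in counting is not given, reads in that overlap cannot be assigned with certainty. CTSB and CTSD overlap gene models that carry only clone-based names, and the other 7 overlap no annotated gene.

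The make-up of the family differed between the groups. A share of the 10 genes' total within 1 library does not depend on library scaling. CTSZ held 28.8%, 28.9% and 30.1% of the family's counts in the β-sitosterol libraries and 10.3%, 11.7% and 11.96% in the DMSO libraries. CTSA held 20.5% to 20.6% after β-sitosterol and 33.7% to 39.4% with DMSO, and CTSC 14.6% to 15.1% after β-sitosterol and 22.9% to 26.3% with DMSO. For CTSZ, CTSA and CTSC the groups did not overlap, nor did they for CTSB, CTSD, CTSS and CTSO, while for CTSH they did. In CPM neither CTSA nor CTSC passed, while the family total was higher after β-sitosterol, so a smaller share is not a lower level. Counts of CTSZ per count of CTSA, a pair chosen after the values were seen, were 1.40 to 1.46 after β-sitosterol and 0.304 to 0.317 with DMSO, and those of CTSB per CTSS 3.10 to 3.599 after β-sitosterol and 0.917 to 1.15 with DMSO.

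Levels of different genes can be compared only per length, and here 2 lengths disagreed. By the authors' TPM, reads scaled by gene length and library, CTSZ held 67.5% ± 1.09 of the summed TPM of the 10 genes after β-sitosterol and 35.7% ± 2.76 with DMSO (SD, n = 3 each). CTSC followed at 7.85% after β-sitosterol and 18.1% with DMSO, CTSA at 7.63% after β-sitosterol and 18.6% with DMSO, and CTSS at 6.60% after β-sitosterol and 15.1% with DMSO. CTSB held 5.27% after β-sitosterol and 3.75% with DMSO, CTSD 3.41% after β-sitosterol and 2.37% with DMSO, and CTSO 1.58% after β-sitosterol and 6.28% with DMSO. After β-sitosterol CTSC (7.76% to 7.98%) lay just above CTSA (7.59% to 7.72%), while with DMSO CTSA, CTSC and CTSS overlapped. Per kilobase of GENCODE v29 exon, CTSZ held 54.98% ± 0.998 after β-sitosterol and 28.1% ± 1.88 with DMSO, next to CTSA at 13.4% after β-sitosterol and 31.7% with DMSO. On that length, after β-sitosterol, CTSB (10.6%) and CTSD (9.49%) stood above CTSC (4.98%) and CTSS (5.65%). With DMSO, CTSB (7.29%) and CTSD (6.33%) stood below CTSC (11.1%) and CTSS (12.6%). These shares count CTSL as 0, and its level is not known. Among the other 9 genes CTSZ was the highest on either length after β-sitosterol, while with DMSO it was first by TPM and behind CTSA per exon length. CTSH and LGMN were under 0.2% throughout.

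**Figure D3:**
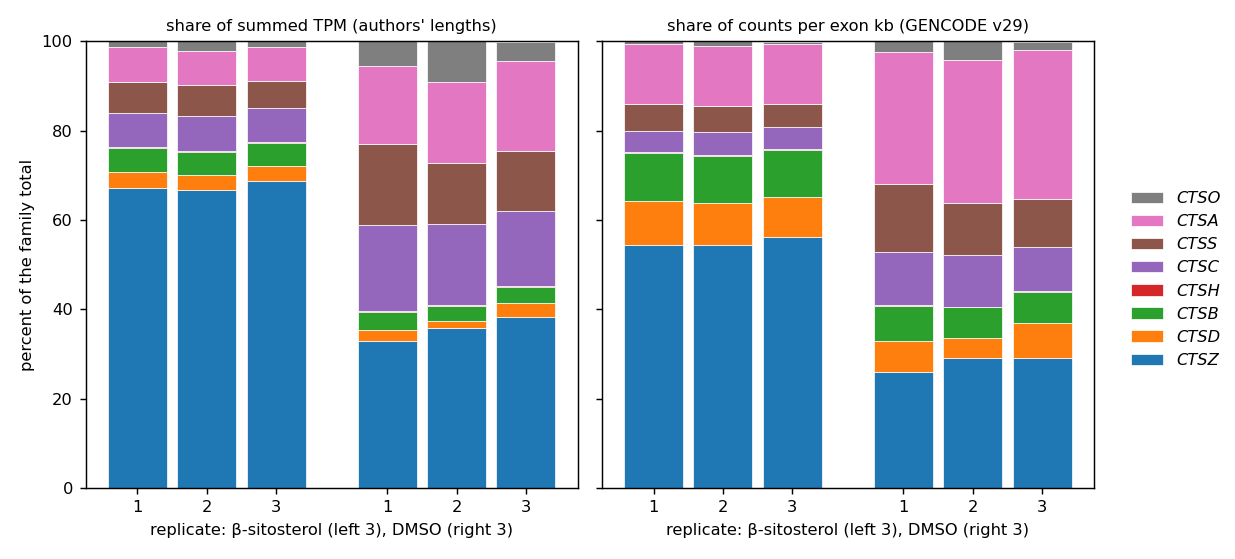
Share of each gene in the family total of each library, β-sitosterol left and DMSO right, by the authors' TPM (left panel) and by counts per kilobase of GENCODE v29 exon (right panel). CTSZ takes 66.7% to 68.8% of the TPM total after β-sitosterol and 32.8% to 38.3% with DMSO.

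Base composition moved with the split to some degree. The longest GENCODE v29 transcripts of CTSZ, CTSD, CTSB and CTSH have 58.3%, 64.0%, 52.8% and 53.3% G or C, those of CTSC, CTSS and CTSO 38.2%, 39.5% and 40.2%, and that of CTSA 60.7%. Over all tested genes the median log2 fold change was 0.04 where G or C was under 45%, -0.14 from 45% to 55% and -0.08 over 55%. In the same order, the share called higher was 18.3%, 18.4% and 20.7%, and the share called lower 12.8%, 28.9% and 25.6%. With the trend on length and G or C removed in each library, CTSZ, CTSD, CTSB and CTSH had log2 fold changes of 1.74, 1.58, 1.96 and 1.23 and were still called. CTSO was then called as lower at -1.21 (edgeR adjusted p = 0.011), while CTSA, CTSC and CTSS, at 0.08, 0.06 and -0.24, were not.

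CTSZ, CTSD and CTSB passed in all 18 alternative settings and left-out libraries, at 1.74 to 2.22, 1.19 to 1.98 and 1.23 to 1.96 on the log2 scale. CTSH passed in 8 of 17, and CTSO, as lower, in 9 of 18. CTSA, CTSC and CTSS passed in 0 of 18. The lowest values of CTSD and CTSB came from log2(TPM + 1), where the median over all genes was -0.19 and 713 genes were called higher and 2226 lower, against 2185 higher and 2512 lower on counts.

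**Figure D4:**
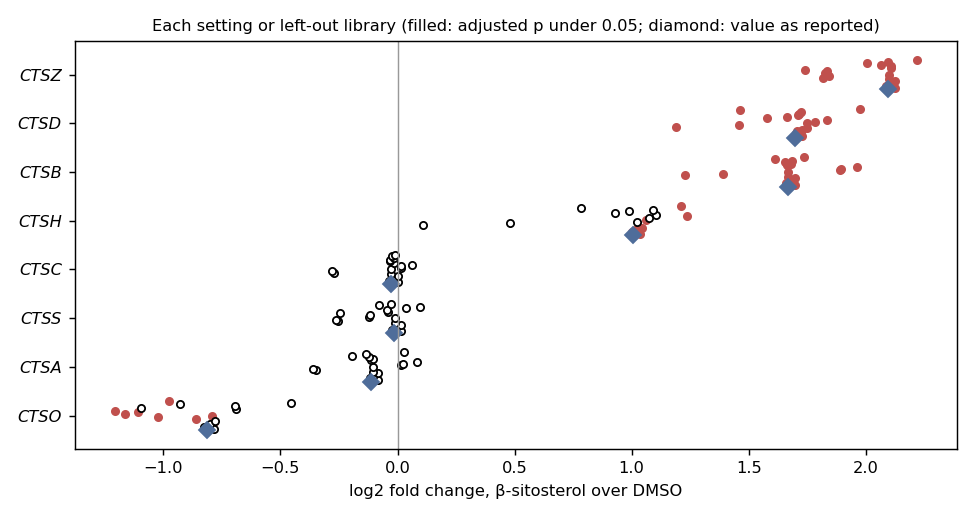
Log2 fold change of the 8 tested genes, β-sitosterol over DMSO, in each setting or with each library left out; filled dots passed the test and the diamond is the value as reported. CTSZ, CTSD and CTSB are filled throughout, CTSH and CTSO in part, and CTSC, CTSS and CTSA never.

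Genes with the most similar pattern were sought by the smallest root mean square difference of mean-centred log2 CPM over the 6 libraries, among genes of at least 5 CPM. For CTSZ these were JUNB, an AP-1 gene, and GRINA, at differences of 0.07 and 0.08 log2 units. For CTSB they were HEXIM1 and NBPF19 (0.07 each). For CTSD they were CD63, a tetraspanin of lysosomal membranes, and LIMD2 (0.07 and 0.08). CD63 stood at 366, 371 and 380 CPM after β-sitosterol and at 131, 77.4 and 144 CPM with DMSO, the lowest library being DMSO replicate 2, as for CTSD. For CTSH they were PSME2 and RPL23A (0.06 and 0.08). CTSH itself had 11 to 31 counts a library and lay under 5 CPM, so its pattern is less certain.

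Of the other human cathepsin genes, only CTSK had enough counts to test. CTSK encodes cathepsin K, the collagen-cutting enzyme of osteoclasts, and lies next to CTSS. CTSK stood at 4.55, 4.28 and 5.42 CPM after β-sitosterol and at 3.49, 3.45 and 2.74 CPM with DMSO. The groups did not overlap and CTSK passed narrowly (log2 fold change 0.56, edgeR adjusted p = 0.047). With the replicate block the call was lost (0.079), with library totals (0.056) or no filter on low counts (0.059) too, and with the trend on length and G or C removed CTSK stood at 0.12 (0.59). CTSK passed in 5 of 18 settings, and its call was lost without any one library other than DMSO replicate 2 (adjusted p = 0.11, 0.088 and 0.18 without β-sitosterol replicates 1, 2 and 3, 0.079 and 0.070 without DMSO replicates 1 and 3). CTSE was listed at 0, and CTSF, CTSG and CTSV had at most 2 counts over all libraries. CTSW had 30 counts after β-sitosterol and 17 with DMSO, too few to pass the filter.

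Of 15 cystatin and serpin genes that inhibit cathepsins only 4 could be tested, of which 3 rose (CSTB, CSTA and SERPINB1) and CST7 did not pass, where 19% of all tested genes rose. CSTB encodes stefin B, the cytosolic inhibitor of cathepsins B, H, L and S. CSTB stood at 26.3, 27.1 and 27.9 CPM after β-sitosterol and at 8.81, 11.9 and 7.36 CPM with DMSO (log2 fold change 1.54 ± 0.18 SE, edgeR adjusted p = 5.29e-04). Counts of CSTB per count of CTSB, a pair chosen after the values were seen, were 0.258 to 0.272 after β-sitosterol and 0.221 to 0.398 with DMSO, so the groups overlapped. CSTA, the stefin A gene, stood at 2.17, 3.06 and 3.20 CPM after β-sitosterol and at 0.587, 0.753 and 0.173 CPM with DMSO (edgeR adjusted p = 0.0025). CSTA reached the filter on low counts only through the β-sitosterol libraries, so its rise and its being tested are not independent. SERPINB1, a serpin that inhibits neutrophil serine proteases such as cathepsin G, rose by 0.56 on the log2 scale (adjusted p = 0.015 in edgeR). It missed the threshold without β-sitosterol replicate 1, 2 or 3 (0.072, 0.060 and 0.054). SERPINB1 also missed it with the trend on length and G or C removed, at 0.32 (0.065), and at 0.29 on log2(TPM + 1) (limma adjusted p = 0.46). CST3, the gene of the secreted inhibitor cystatin C, had 1 count in all.

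A list of 10 further lysosomal genes held peptidases, the hydrolases PPT1, ASAH1 and NAAA, and the thiol reductase IFI30. Of these 9 could be tested, of which 5 rose (the peptidases DPP7 and PRCP, and PPT1, ASAH1 and IFI30) and 4 did not pass (TPP1, SCPEP1, NAAA and CPQ). The median log2 fold change over the 9 was 0.49, and of all tested genes 19% rose. DPP7, a dipeptidyl peptidase, stood at 42.5, 38.9 and 42.1 CPM after β-sitosterol and at 9.48, 9.16 and 12.6 CPM with DMSO (edgeR adjusted p = 1.31e-04). PPT1, which removes palmitate from proteins, stood at 183, 204 and 198 CPM after β-sitosterol and at 89.6, 98.5 and 89.2 CPM with DMSO (edgeR adjusted p = 3.06e-04). PRCP, a prolylcarboxypeptidase, and ASAH1, acid ceramidase, rose by 1.03 and 0.49 on the log2 scale. IFI30, the thiol reductase that opens disulfide bonds of antigen for cathepsins, was called higher at 1.36, 1.21 and 1.45 CPM after β-sitosterol against 0.117, 0.126 and 0.173 CPM with DMSO, from 112 and 14 counts over 3 libraries each. It reached the filter on low counts only through the β-sitosterol libraries, so counting it among the genes that rose is not independent of its being tested. TPP1, a tripeptidyl peptidase, named after its values were seen, stood at 57.3, 62.0 and 56.8 CPM after β-sitosterol and at 45.8, 105 and 43.6 CPM with DMSO. DMSO replicate 2 lay far above the other DMSO libraries, and without it TPP1 was called higher (log2 fold change 0.39, edgeR adjusted p = 0.0045), against -0.14 with it (0.74). CPQ, a carboxypeptidase at -0.65 on the log2 scale (0.068), was called lower without DMSO replicate 2 or without β-sitosterol replicate 2.

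Among the partners of cathepsin A, NEU1 rose and GLB1 did not pass. NEU1, the lysosomal neuraminidase, stood at 52.4, 56.0 and 54.2 CPM after β-sitosterol and at 24.1, 18.7 and 26.4 CPM with DMSO (edgeR adjusted p = 5.77e-04). GLB1, β-galactosidase, stood at 30.1 ± 2.14 CPM after β-sitosterol and 38.5 ± 3.90 CPM with DMSO (SD, n = 3 each; edgeR adjusted p = 0.059). Counts of NEU1 per count of CTSA were 0.516 to 0.556 after β-sitosterol and 0.174 to 0.246 with DMSO. Of the 5 genes listed here 2 rose, NEU1 and PSAP, and 1 fell, GM2A, while GLB1 and GALNS did not pass. Among all tested genes 19% rose and 21.8% fell. PSAP, the precursor of the saposins that help hydrolases act on lipids, stood at 452, 444 and 459 CPM after β-sitosterol and at 191, 134 and 212 CPM with DMSO (edgeR adjusted p = 6.73e-04). GM2A, the activator of GM2 breakdown, fell by 0.45 on the log2 scale (adjusted p = 0.019 in edgeR). It missed the threshold without β-sitosterol replicate 1, 2 or 3 (0.098, 0.075 and 0.077). Lower genes of this group numbered 2 without DMSO replicate 2.

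Of 22 genes that tag and sort lysosomal enzymes, all tested, 2 rose (CLTB and VPS29), 4 fell (GGA3, IGF2R, GGA2 and CLTA) and 16 did not pass. Over all tested genes 19% rose and 21.8% fell, so the list shows no excess of either. IGF2R, the large mannose 6-phosphate receptor, stood at 235, 233 and 248 CPM after β-sitosterol and at 367, 328 and 383 CPM with DMSO (edgeR adjusted p = 0.0036). With the trend on length and G or C removed its log2 fold change was -0.03 (0.81). GGA3, an adaptor that loads these receptors into vesicles, stood at 57.4, 57.5 and 64.9 CPM after β-sitosterol and at 92.1, 104 and 98.9 CPM with DMSO (edgeR adjusted p = 0.0020). CLTB, a clathrin light chain, stood at 101, 95.5 and 90.9 CPM after β-sitosterol and at 44.0, 34.6 and 57.3 CPM with DMSO, and VPS29, a retromer subunit that recycles receptors, rose by 0.71 on the log2 scale. The small receptor gene M6PR stood at -0.22 on the log2 scale (edgeR adjusted p = 0.13) and GNPTAB, whose product makes the tag, at -0.32 (0.11). Higher genes numbered 4 with the replicate block, 5 without DMSO replicate 2, 4 without DMSO replicate 3 and 8 with the trend removed, and lower genes 2 without β-sitosterol replicate 1 or 2.

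Among 14 factors of the MiT/TFE family and their controllers, 13 were tested, of which 3 rose (RRAGD, MCOLN1 and TFE3) and 3 fell (RPTOR, MTOR and YWHAE). These counts are near the shares over all tested genes, 19% higher and 21.8% lower. The list's median log2 fold change of -0.18 had no stable sign: it was 0.09 with limma-voom and 0.07 with the trend on length and G or C removed. TFEB stood at 132 ± 5.64 CPM after β-sitosterol and 175 ± 38.6 CPM with DMSO (SD, n = 3 each; edgeR adjusted p = 0.078). RPTOR, the subunit that brings substrates to the kinase complex mTORC1, stood at 34.1, 30.3 and 32.5 CPM after β-sitosterol and at 85.8, 85.5 and 105 CPM with DMSO (edgeR adjusted p = 1.69e-04). MTOR, the kinase itself, stood at 142, 147 and 152 CPM after β-sitosterol and at 216, 225 and 228 CPM with DMSO (edgeR adjusted p = 0.0025), and at -0.14 on the log2 scale (0.11) with the trend on length and G or C removed. RRAGD, a GTPase that recruits mTORC1 and TFEB to the lysosome, and MCOLN1, a lysosomal calcium channel, rose by 0.76 and 0.68 on the log2 scale. Messenger RNA says nothing of where TFEB or TFE3 sits in the cell.

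On the class II side, which cathepsin S serves, CD74, the invariant chain gene, stood at 3197 ± 64.3 CPM after β-sitosterol and 3277 ± 475 CPM with DMSO (SD, n = 3 each; edgeR adjusted p = 0.85). Of 6 genes 2 rose, HLA-DMA (log2 fold change 0.91) and HLA-DOA (0.51), and 1 fell, CIITA (-1.47), the class II coactivator. The shares over all tested genes were 19% higher and 21.8% lower.

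**Figure D5:**
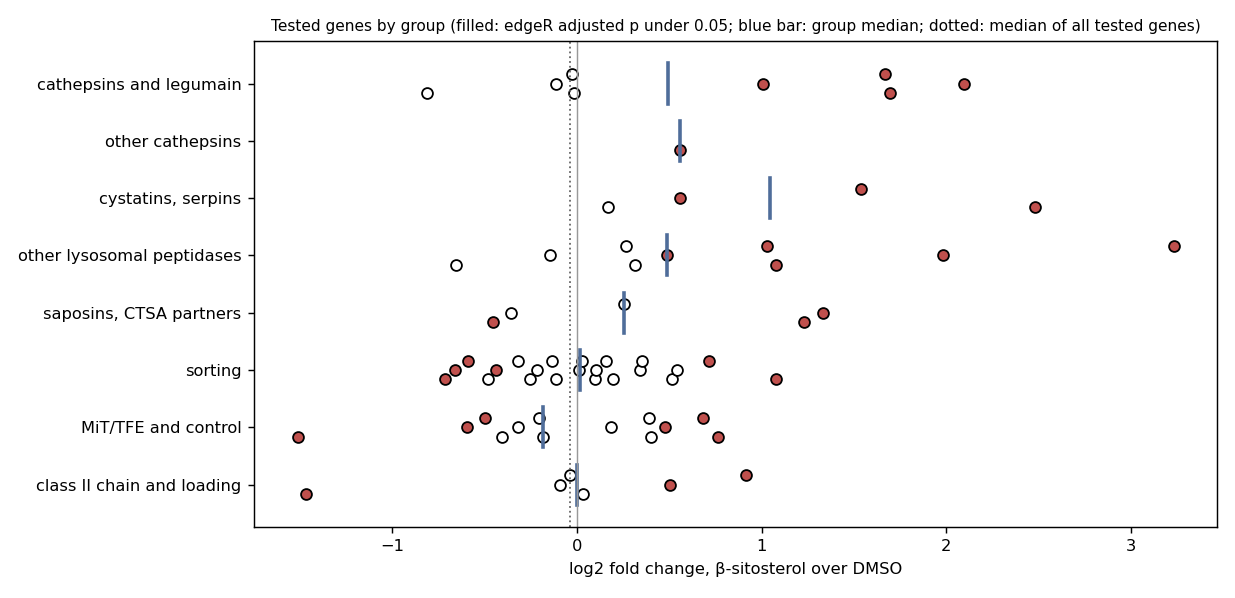
Log2 fold change of each tested gene, β-sitosterol over DMSO, by group; filled points passed edgeR's test, blue bars are group medians and the dotted line the median of all tested genes. The highest median, 1.05, is that of the 4 tested cystatins and serpins, and the medians near 0 change sign with the setting. Of those 4, CSTA reached the filter on low counts only through the β-sitosterol libraries, as did IFI30 among the lysosomal peptidases.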

How the data were processed

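Per the labels' protocols, TRIzol was used to extract RNA, and libraries were made by an Illumina procedure. Per the submitters' processing notes, the tools were featureCounts 2.0.1, StringTie 2.2.1, STAR 2.7.10 and fastp 0.23.2, listed with no role, and the build GRCh38. How strand and multi-mapped reads were handled, and the annotation, is not given in the sources used here. Values in the deposited count table are whole reads per gene, not normalized, 1 column a library. The deposited TPM equal each count over a constant of the gene and of the library. The listed TPM sum to 57.0% to 57.8% of a full total in the β-sitosterol libraries and to 39.5% to 69.2% in the DMSO libraries, so TPM were used only within a library and as an alternative.

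Of 65807 rows, 61 repeats of a symbol were dropped. The test was edgeR 4.0.16 in R 4.3.3 (TMM, filterByExpr, quasi-likelihood, treatment as the only term, two-sided, Benjamini-Hochberg over 11525 genes, threshold 0.05), checked on simulated counts, where the share of false calls came out above that threshold. SE is the size of the log2 change divided by the root of F, and 95% intervals use it with the test's degrees of freedom. Exon lengths and base composition came from GENCODE v29, promoters from RefSeq on GRCh38.p14. Alternatives used DESeq2 1.42.0, limma 3.58.1 and the settings listed at the end.

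The members and the gene lists were chosen with earlier results of these data known. Named genes are the members, up to 4 called genes of each list by smallest p, and the 2 nearest genes of each called member. Others were named after their values were seen. Removing the trend on length and base composition was added after seeing the data.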

Additional observations from a re-analysis of the deposited data

How the results depend on the processing

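Of the 8 tested members, 4 were higher in the fit reported. CTSO was called lower, making 1 lower member, without a filter on low counts, with DESeq2, on log2(TPM + 1) and on log2(TPM + 0.1). It was called lower too with the gene length trend removed, and with the trend on length and base composition removed. The same held with the replicate block, alone or with the gene length trend removed. CTSH lost its call on both TPM scales and with the replicate block, alone or with the gene length trend removed. CTSZ, CTSD and CTSB kept theirs throughout. Leaving out 1 library gave 0 to 1 lower members, and CTSH kept its call only without DMSO replicate 3. Over all genes 4697 were called. There were 2939 calls (713 higher) on log2(TPM + 1) and 2935 (691 higher) on log2(TPM + 0.1). Without 1 library, calls ranged from 3094 to 6640, higher genes from 1501 to 3091 and lower genes from 1593 to 3549. A filter of 1 CPM in 3 libraries removed CTSH and put the median of the remaining members at -0.004. The median over the members was -0.07 on log2(TPM + 1) and 0.11 on log2(TPM + 0.1), where the median of all genes was -0.19 and -0.26. With 1 library left out, TPP1 ranged from -0.35 to 0.39, the 0.39 being without DMSO replicate 2, where it was called. On both TPM scales 0 sorting, MiT/TFE or class II genes were called higher, and with RLE factors, DESeq2 or no filter 4 sorting genes were. The cause of these changes was not tested.

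The labels state no pairing by replicate number. Same-numbered libraries correlated in their deviations from the group means at 0.04, 0.10 and 0.15 across genes, and differently numbered ones at -0.14 to 0.02. These values are small, but each library correlated best with its own number. Whether same-numbered libraries shared a batch was not tested. The replicate block gave 4743 calls. Depth limits LGMN and CTSH.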
